A study of Mus musculus with 7 samples.

Results

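The genes described here are the enzymes that make glutathione and those that use glutathione, thioredoxin or metal centres to remove peroxides, superoxide and reactive electrophiles. They were chosen by name from the platform annotation: every glutathione S-transferase of the Gsta, Gstk, Gstm, Gsto, Gstp, Gstt, Gstz and Mgst families, every Gpx and Prdx gene, and Gclc, Gclm, Gss, Gsr, Nqo1, Txnrd1, Txn1, Cat, Sod1 and Sod2. The rule found 44 genes with a probe set of their own among 18194 measured genes. Gsta1 and Prdx1 also fall under the rule, but were on probe sets assigned to more than 1 gene and were left out.

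Expression was measured on Affymetrix mouse genome arrays in luminal cells, the secretory epithelium of the prostate gland. The sort of mouse prostate cells kept those with CD49f and without Sca1, after removal of cells with the lineage markers CD31, CD45 or Ter119. WT stands for wild-type cells, with 3 arrays lettered A to C. T-ETV1 has 4 arrays lettered A to D, and in these cells a human ETV1 cDNA is driven by the endogenous mouse Tmprss2 promoter. The series text calls the replicates biological, and age and strain were not given in the sources used here. A GFP gate was added for T-ETV1 only, and its part cannot be told apart from that of the genotype. Each probe set has 1 linear intensity per array. Intensities compare arrays for 1 probe set, and not the amounts of different genes.

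Glutathione is a small thiol peptide. Glutamate-cysteine ligase, made of the catalytic subunit Gclc and the modifier Gclm, performs the rate-limiting step of its synthesis and Gss adds the last residue. Glutathione S-transferases attach it to electrophiles, glutathione peroxidases spend it to reduce peroxides, and Gsr restores it. Peroxiredoxins do the same work with electrons from thioredoxin. Many of these genes are targets of the transcription factor NRF2, which binds the antioxidant response element. In human prostate cancer the promoter of GSTP1 is often methylated and silent, which makes this family one of the best known in prostate tumours.

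Promoter sequences from RefSeq (build GRCm38.p6) were available for 40 of the 44 genes, as 54 promoters. The core of the antioxidant response element was searched as TGACNNNGC on both strands of the 250 bases before the start. It was found in 7 of the 54 promoters (13.0%), against 10.2% of 32851 promoters in the table. The 7 genes were Gclm, Gsta3, Gstm5, Gstm7, Mgst1, Sod1 and Txnrd1. A match describes these letters and not a bound site. The 4 promoters shown are all of genes on the plus strand. Gclm and Txnrd1 belong to genes whose signal, on their brightest probe set, was nearly level over the arrays. Mgst1 and Gsta3 belong to genes whose signal varied widely. Each is written 5′ to 3′ with the match, on either strand, in capitals. In a further search, the AP-1 motif TGANTCA was in 3 of the 54 promoters (5.56%; Gstm5, Gstp1 and Mgst2), against 6.75% of all. The printed promoters lie at chr3:122245307-122245556 (Gclm), chr10:82858956-82859205 (Txnrd1), chr6:138140277-138140526 (Mgst1) and chr1:21240335-21240584 (Gsta3).
Gclm: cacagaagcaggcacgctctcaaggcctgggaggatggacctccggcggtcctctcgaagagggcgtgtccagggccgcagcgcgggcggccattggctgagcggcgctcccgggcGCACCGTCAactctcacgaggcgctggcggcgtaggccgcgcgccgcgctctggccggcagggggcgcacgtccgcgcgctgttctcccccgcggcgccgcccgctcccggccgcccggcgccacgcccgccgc
Txnrd1: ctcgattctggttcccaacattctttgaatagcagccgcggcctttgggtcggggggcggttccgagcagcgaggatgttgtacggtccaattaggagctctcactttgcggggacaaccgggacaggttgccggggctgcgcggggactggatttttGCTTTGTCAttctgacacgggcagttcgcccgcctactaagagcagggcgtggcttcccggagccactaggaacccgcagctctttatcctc
Mgst1: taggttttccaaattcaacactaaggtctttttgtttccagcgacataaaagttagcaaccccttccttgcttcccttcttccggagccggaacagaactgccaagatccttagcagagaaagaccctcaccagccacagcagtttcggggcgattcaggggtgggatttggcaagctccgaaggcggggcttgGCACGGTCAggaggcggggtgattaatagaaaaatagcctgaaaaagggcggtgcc
Gsta3: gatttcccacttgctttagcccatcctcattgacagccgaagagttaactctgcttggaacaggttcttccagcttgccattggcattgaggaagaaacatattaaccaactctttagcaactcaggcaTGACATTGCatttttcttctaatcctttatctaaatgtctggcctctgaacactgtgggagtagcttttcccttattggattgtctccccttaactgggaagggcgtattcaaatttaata

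The luminal markers measured were bright on every array, which does not show how pure the sorted cells were. Of these markers, Tmprss2 is also the gene whose promoter drives ETV1 in T-ETV1. The summed intensity of the 6 measured of 7 luminal markers (Krt8, Krt18, Epcam, Cd24a, Pbsn and Tmprss2) lay between 48374 and 50495 in WT and between 46247 and 51903 in T-ETV1. Markers of other cell types differed far more between arrays. The sum of 6 basal markers was 4034, 10663 and 17290 in WT (A to C) and 331, 1022, 14283 and 1205 in T-ETV1 (A to D). All 6 basal, 6 endothelial, 6 fibroblast and 6 smooth muscle markers had a lower mean in T-ETV1, as did 5 of 6 leukocyte and 5 of 6 macrophage markers. The sum of 6 fibroblast markers ranged from 3764 to 20383 in WT and from 1782 to 8469 in T-ETV1, and was highest in the C array of each group. Endothelial markers, also 6, summed to 1031 to 2938 in WT and 52 to 1462 in T-ETV1. Smooth muscle markers summed to 544 to 5429 and 113 to 802, and macrophage markers to 96 to 13276 and 98 to 7210, with both macrophage maxima again in the C arrays. Outside the C arrays the macrophage sum was 96 and 124 in WT and 303, 163 and 98 in T-ETV1, so its lower T-ETV1 means rest on WT C. Apart from Cd52, no leukocyte marker exceeded 24.55 in WT A or WT B. Leukocyte markers summed to 6873 to 12457 and 5789 to 9976, with Cd52 the largest part on every array, and 5 seminal vesicle secretion genes to 36301 to 41210 and 42417 to 50383. In these bulk samples fewer cells of a type and less RNA per cell cannot be told apart.

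None of the 44 genes passed the test of T-ETV1 against WT after adjustment over all genes (limma, Benjamini-Hochberg adjusted p under 0.05, lowest adjusted p among them 0.733). The same held for all 18194 genes, of which 0 (0.0%) passed. Without T-ETV1 C 27 of all genes passed, without WT C 7 and without both C arrays 68, with no enzyme among them. Of the 44, 20 had a positive and 24 a negative difference, T-ETV1 minus WT on the log2(intensity + 16) scale. Their median difference was -0.02, beside -0.03 over all genes. At an unadjusted limma p under 0.05 there was 1 enzyme gene (2.27%), against 6.12% of all genes. It was higher in T-ETV1, as were 2.0% of all genes, and no enzyme gene was lower, as were 4.12% of all genes. That count was 4 without WT A, 3 without WT B, 2 when T-ETV1 B or T-ETV1 C was left out, and 2 with the replicate letter as a block. For these alternatives the share of all genes was not counted. The change in the count therefore cannot be read as particular to the enzymes. The arrays of the groups did not overlap for 4 enzyme genes (9.09%), against 6.32% of all genes. Of these, 1 was higher (2.42% of all genes) and 3 were lower (3.9% of all genes). Without both C arrays 8 did not overlap, without WT C 7 and without WT A 7. The share of all genes was not counted for these sets of arrays, and groups of fewer arrays overlap less readily. These counts therefore cannot be read as particular to the enzymes. With each array's median set equal, the median of all genes moved to 0.14 and the split became 34 positive and 10 negative, so the sign of a small difference rests on scaling. With quantile normalization the split was 24 positive and 20 negative.

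**Figure D1:**
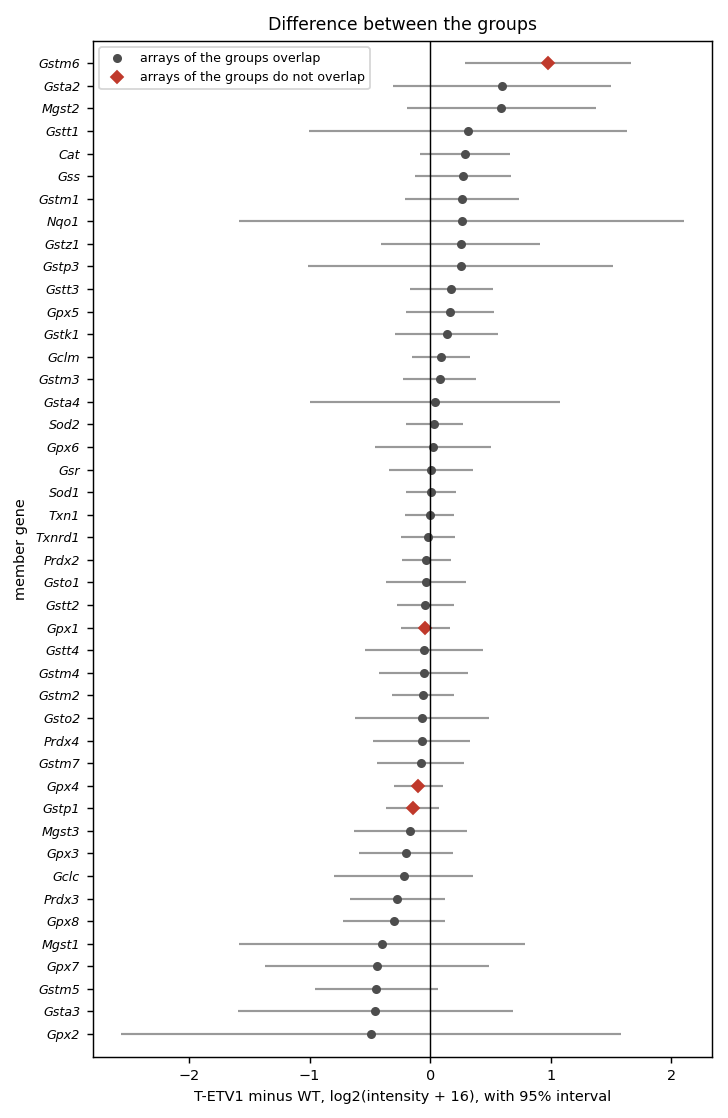
T-ETV1 minus WT for each of the 44 genes on the log2(intensity + 16) scale, with the 95% interval from limma as a bar. Red diamonds mark the 4 genes whose arrays do not overlap between groups (Gstm6, Gpx1, Gpx4 and Gstp1), and only the interval of Gstm6 leaves out 0.

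How firmly these values bound a difference varied between genes. For 17 of the 44 the whole 95% interval lay within 0.5 log2 of 0. For Gpx2 it ran from -2.56 to 1.59, for Nqo1 from -1.58 to 2.11 and for Mgst1 from -1.59 to 0.78, so differences of several fold in either direction were not detectable here for Gpx2 and Nqo1. The spread over arrays varied as well. In 11 genes the highest of the 7 arrays was less than 1.2 times the lowest. In 13 genes it was more than 3 times the lowest, and 7 of these were above the array's median intensity on every array: Gpx2, Gsta2, Gsta3, Gsta4, Gstt1, Mgst1 and Nqo1.

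**Figure D2:**
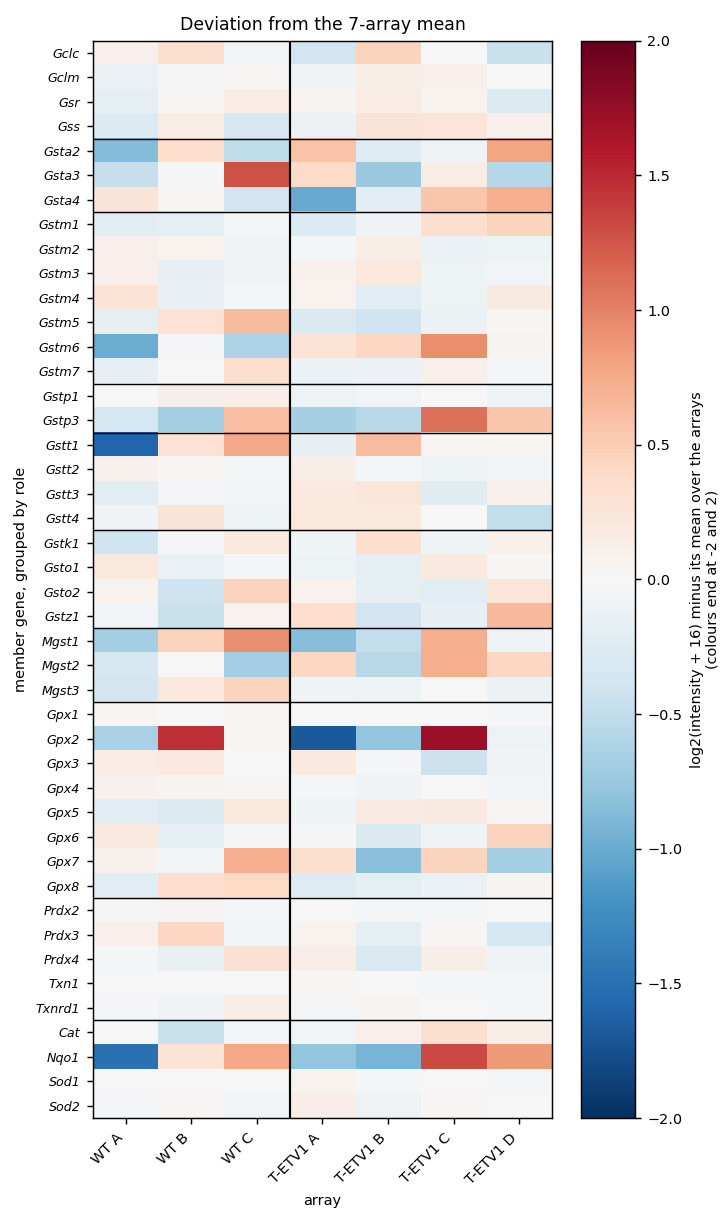
Colours show log2(intensity + 16) minus its mean over the 7 arrays, for the 44 genes in rows grouped by role and the arrays in columns, with a line between WT and T-ETV1. Rows such as Sod1, Txn1, Prdx2 and Gpx1 are nearly white throughout, while Gpx2, Nqo1, Gstt1 and Mgst1 change colour within both groups or within one.

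For the enzymes of glutathione synthesis and recycling, the probe sets that stand for Gclc, Gclm, Gss and Gsr had overlapping groups. A second, dim probe set of Gsr did not overlap and is given with the other probe sets further on. Gclc, the catalytic subunit, had intensities of 874, 1021 and 775 in WT (A to C). In T-ETV1 (A to D) they were 618, 1102, 818 and 588. T-ETV1 B was the highest array and T-ETV1 A and D the lowest, so the groups overlapped (difference -0.22 ± 0.24, SE, between -0.40 when T-ETV1 B and -0.10 when T-ETV1 D was left out). A second Gclc probe set had the opposite sign, at 0.21 ± 0.21. Gclm, the modifier subunit, was at 1344, 1444 and 1500 in WT and at 1402, 1609, 1597 and 1483 in T-ETV1. Its difference of 0.09 ± 0.10 (limma adjusted p = 0.932) was positive within all 3 letter pairs but smaller than its error. Its second probe set had -0.14 ± 0.16.

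Gss, which completes glutathione, had 707, 953 and 672 in WT and 786, 1026, 1016 and 912 in T-ETV1. T-ETV1 arrays were all above WT A and WT C, while WT B lay inside their range, and the difference was 0.27 ± 0.17 (adjusted p = 0.876). It was positive in all 3 letter pairs, at 0.42 without WT B, 0.18 without WT C and 0.05 with array weights. A second Gss probe set had 581, 817 and 490 in WT and 505, 796, 667 and 625 in T-ETV1. Its difference was 0.06 ± 0.22, with T-ETV1 lower for letters A and B, so the agreement of the pairs holds for the first probe set only. Gsr, glutathione reductase, had 3062, 3553 and 3849 in WT against 3623, 3874, 3677 and 2877 in T-ETV1, with the lowest array and the highest both in T-ETV1 (0.01 ± 0.15).

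Among the cytosolic glutathione S-transferases, each of the 3 alpha class genes varied more than 3-fold over the arrays. Gsta4, which conjugates the lipid peroxidation product hydroxynonenal, was at 5446, 4691 and 3500 in WT. In T-ETV1 it was at 2259 (A), 3942 (B), 6676 (C) and 7507 (D). The T-ETV1 arrays thus lay on both sides of all 3 WT arrays, and the mean difference of 0.04 ± 0.43 describes neither side. The sign turned without the C arrays, where it was -0.31. Gsta3 was at 796, 1073 and 2677 in WT and at 1444, 651, 1216 and 732 in T-ETV1, with WT C far above the rest. Its difference of -0.46 ± 0.48 became 0.05 without WT C. Gsta2 had 98.2, 250 and 131 in WT and 295, 158, 181 and 346 in T-ETV1, and the difference of 0.60 ± 0.38 (adjusted p = 0.876) came with overlapping groups. It was 0.33 without WT A and 0.94 without WT B.

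The mu class is a row of neighbouring genes, in the order Gstm5, Gstm7, Gstm6, Gstm3, Gstm2, Gstm1 and Gstm4 in the gene table, and its members share much sequence, so probe sets may pick up more than 1 of them. Gstm6 was the enzyme gene with the smallest p. It had only 6.32, 27.1 and 12.6 in WT and 38.0, 43.1, 68.6 and 30.1 in T-ETV1. All T-ETV1 arrays were above all WT arrays, but 6 of the 7 values were under the median intensity of their array. The difference was 0.98 ± 0.29 (limma adjusted p = 0.733), between 0.76 and 1.23 when each array was left out, and the groups did not overlap after either other scaling. With signals this dim the size depended on the pseudocount, at 1.64 with 1 and 0.45 with 64, and it was 0.58 with array weights. Gstm5, next in p, had the opposite sign. It was at 1510, 2083 and 2641 in WT and at 1379, 1275, 1567 and 1747 in T-ETV1, lower within all 3 letter pairs, with WT A inside the T-ETV1 range. Its difference was -0.45 ± 0.21 (limma adjusted p = 0.835, and 0.692 with the replicate letter as a block, where it joined Gstm6 under an unadjusted p of 0.05). It was -0.26 without WT C, -0.66 without WT A and -0.28 with equal array medians. WT C, its highest array, also had the highest fibroblast, basal, endothelial, smooth muscle, leukocyte and macrophage sums. Their part in this was not tested.

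Gstm1, the main mu class enzyme of many tissues, had 5266, 5400 and 6076 in WT and 5122, 5900, 7806 and 8444 in T-ETV1. T-ETV1 C and D stood above all other arrays, as they did for Gsta4, while T-ETV1 A was the lowest (0.26 ± 0.20, and 0.15 without T-ETV1 D). A second probe set followed it closely, from 5001 in T-ETV1 A to 7993 in T-ETV1 D. The first probe set and another, by the suffix x of their names, can bind related transcripts. That other one had 1478, 1550 and 2475 in WT and 2033, 2492, 3700 and 4237 in T-ETV1 (0.74 ± 0.31). Gstm2 differed little over arrays, from 6072 (T-ETV1 C) to 7200 (T-ETV1 B). Gstm4 ranged from 401 to 575 and Gstm7 from 261 to 386, and in both genes the groups overlapped. Gstm3 did not exceed 9.94 on any array.

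Gstp1, the pi class enzyme, was close to level. It had 6084, 6554 and 6681 in WT, with a mean of 6440 ± 314 (SD, n = 3), and 5643, 5825, 6053 and 5736 in T-ETV1, with a mean of 5814 ± 175 (SD, n = 4). Every T-ETV1 array was below every WT array, and the difference was -0.15 ± 0.09 (limma adjusted p = 0.876). The non-overlap ended with quantile normalization, and with equal array medians the difference was 0.02. The neighbouring Gstp3 was at 13.7, 7.70 and 41.4 in WT and 7.80, 9.82, 65.1 and 40.0 in T-ETV1, highest in the C arrays.

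Of the theta class, which is again a row of neighbours, Gstt1 had the widest range in WT. It was at 244, 935 and 1297 in WT A, B and C, whereas T-ETV1 arrays lay between 680 and 1180. WT A alone was low, and the difference of 0.32 ± 0.55 turned to -0.39 without it. Gstt3 ran from 1103 to 1251 in WT and from 1083 to 1519 in T-ETV1 (0.18 ± 0.14, and 0.28 without T-ETV1 C), and Gstt2 from 2293 to 2499 and from 2222 to 2556. Gstt4 did not exceed 21.6. Gstk1, an enzyme of mitochondria and peroxisomes, ranged from 2471 to 3730 in WT and from 3041 to 4055 in T-ETV1. Gstz1, which acts in tyrosine breakdown, ranged from 1336 to 1916 and from 1405 to 2862. Gsto1, of the omega class, ranged from 2288 to 2880 and from 2194 to 2859, and Gsto2 did not exceed 54.6.

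Of the membrane-bound transferases, Mgst1 varied most over the arrays and Mgst3 least. Mgst1, which also reduces lipid peroxides, was at 1156, 2533 and 3545 in WT (A to C) and at 1025, 1316, 3090 and 1766 in T-ETV1 A to D. It was lower in T-ETV1 within all 3 letter pairs (-0.17 for A, -0.94 for B and -0.20 for C), and its overall difference was -0.40 ± 0.50 (adjusted p = 0.940). This moved to -0.05 without WT C and -0.86 without WT A. Leaving out T-ETV1 A gave -0.18 and leaving out T-ETV1 C gave -0.70. Its value was -0.64 with array weights, -0.24 with equal array medians and -0.18 when its probe sets were averaged. The arrays WT C, T-ETV1 C and WT B had, in that order, the 3 highest Mgst1 values and, in the same order, the 3 highest basal marker sums. T-ETV1 A was lowest in both. The order broke at WT A, which had the next highest basal sum but an Mgst1 value below those of T-ETV1 B and T-ETV1 D. The fibroblast and endothelial sums had the same 3 arrays highest, in the same order, so that order is not particular to basal markers. The part of basal or other cells in the Mgst1 signal was not tested. Mgst2 had 290, 367 and 225 in WT and 499, 246, 621 and 498 in T-ETV1, where 3 of 4 arrays were above all WT arrays and T-ETV1 B was not (0.59 ± 0.33, adjusted p = 0.864). Mgst3 ranged from 1246 to 2208 in WT and only from 1491 to 1625 in T-ETV1.

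**Figure D3:**
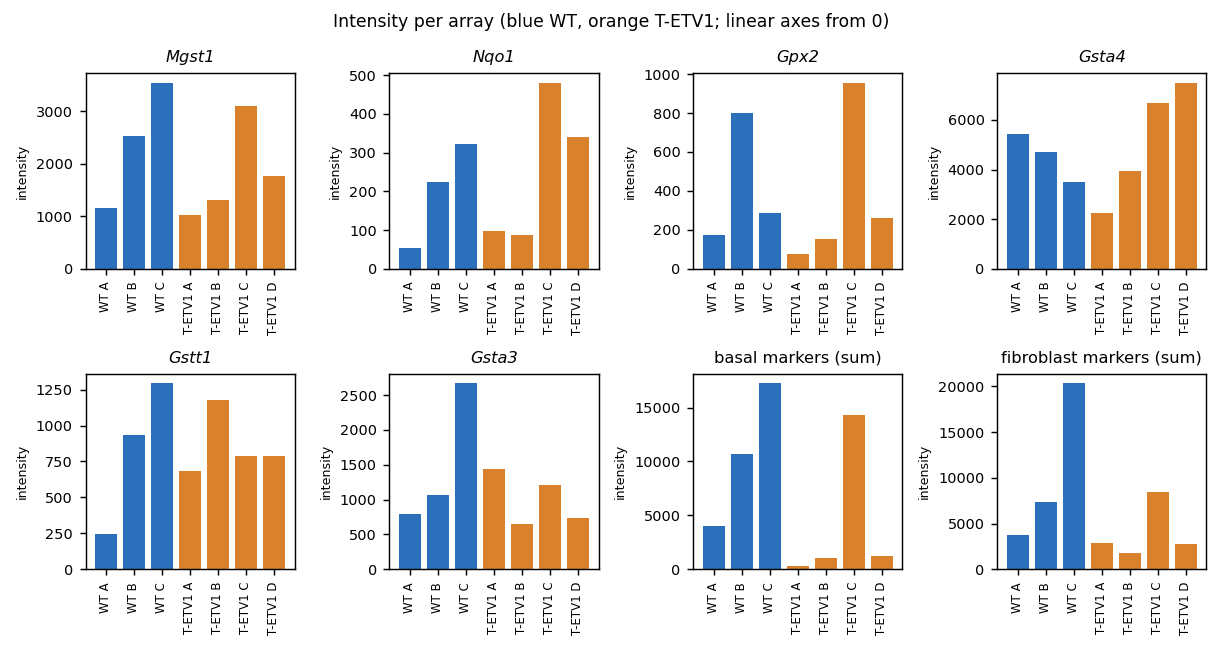
Intensity on each array for 6 enzyme genes with a wide range, and the summed intensity of 6 basal and 6 fibroblast markers (blue WT, orange T-ETV1, linear axes that start at 0 and differ between panels). Mgst1 is highest in WT C, T-ETV1 C and WT B, as are the basal and fibroblast sums, whereas Gsta4 is highest in T-ETV1 D and C.

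The glutathione peroxidases held both nearly level and widely ranging genes. Gpx1, the cytosolic form, was at 5296, 5196 and 5318 in WT and 5166, 5152, 5143 and 5043 in T-ETV1. The groups did not overlap, yet the difference was -0.04 ± 0.08 (adjusted p = 0.973), and its sign turned with equal array medians (0.12). Gpx4, which protects membranes from lipid peroxides, was at 4697, 4571 and 4510 in WT and 4324, 4195, 4400 and 4251 in T-ETV1. Again all T-ETV1 arrays were lower, by -0.10 ± 0.09 on average (adjusted p = 0.911), but a second Gpx4 probe set overlapped (3344 to 3450 in WT, 2987 to 3382 in T-ETV1). The sign of Gpx4 turned with equal array medians (0.07). Neither gene kept the groups apart after quantile normalization or with equal array medians.

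Gpx2, a form of epithelia of the gut, spanned the widest range of the enzymes that were above the array median throughout. It had 172, 801 and 285 in WT and 76.5, 156, 956 and 260 in T-ETV1, 12.5 times from the lowest to the highest array. WT B and T-ETV1 C were high and the groups overlapped fully (-0.49 ± 0.87). Gpx3, the secreted form of plasma, was at 7999, 8265 and 7321 in WT and 8311, 7028, 5354 and 6939 in T-ETV1, where T-ETV1 C was lowest and T-ETV1 A highest (-0.20 ± 0.16, and -0.09 without T-ETV1 C). Gpx8, an enzyme of the endoplasmic reticulum, had 1371, 2027 and 2102 in WT and 1333, 1410, 1460 and 1652 in T-ETV1. It was lower within all 3 letter pairs (-0.30 ± 0.18, adjusted p = 0.871), and WT A lay within the T-ETV1 range. It was -0.19 without WT C, -0.50 without WT A and -0.14 with equal array medians. Gpx7, also of the endoplasmic reticulum, ranged from 87.5 to 160 and from 43.9 to 130. Gpx5, known from the epididymis, did not exceed 9.44, nor Gpx6 19.5, on any array.

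Among the peroxiredoxins, Prdx3, the mitochondrial form, was at 2423, 3018 and 2170 in WT and 2362, 1964, 2282 and 1767 in T-ETV1 (-0.27 ± 0.16, adjusted p = 0.876). WT B was highest, and the difference was -0.14 without it, -0.42 without both C arrays and -0.11 with equal array medians. Prdx4, of the endoplasmic reticulum, ranged from 2065 to 2820 and from 1844 to 2515. Prdx2, the cytosolic form, was level on the probe set that stands for it, from 5800 (T-ETV1 C) to 6129 (WT B), with a difference of -0.03 ± 0.09 (SE).

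Its other probe set gave a different picture. It read 63.0, 87.0 and 862 in WT (A to C). In T-ETV1 (A to D) it read 1185, 1133, 2013 and 1279. WT A and WT B were far below all other arrays, WT C lay nearer to T-ETV1 than to them, and the groups did not overlap. The fit over every probe set gave a difference of 2.84 ± 0.81 (limma adjusted p = 0.767). With the mean of both probe sets Prdx2 had a difference of 1.40.

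**Figure D4:**
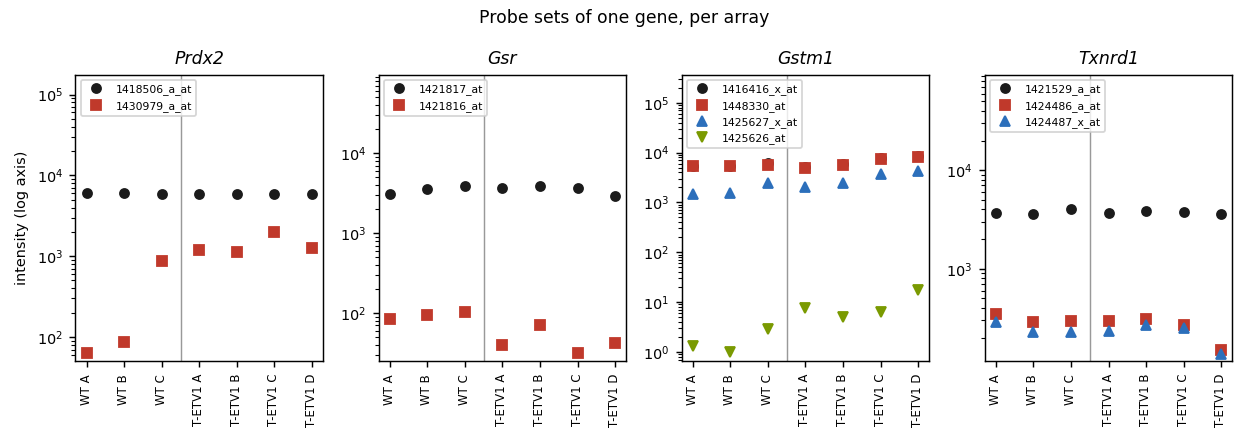
Intensity on a log axis for each probe set of Prdx2, Gsr, Gstm1 and Txnrd1 on the 7 arrays, with a line between WT and T-ETV1. The red Prdx2 probe set is low in WT A and WT B only, the red Gsr probe set is lower in all T-ETV1 arrays, and the first and second Gstm1 probe sets nearly coincide.

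Such disagreement was not limited to Prdx2. In 10 of the 19 genes with several probe sets, 2 of them had differences of opposite sign: Gclc, Gclm, Gsr, Gstm3, Mgst1, Prdx2, Prdx4, Sod1, Sod2 and Txn1. A dim Gsr probe set had 83.2, 95.8 and 103 in WT and 40.0, 70.0, 31.7 and 42.5 in T-ETV1, without overlap (-0.86 ± 0.21, limma adjusted p = 0.674). The bright one, given above, overlapped. A dim Txn1 probe set had 19.8, 15.8 and 7.20 in WT and 29.98, 29.1, 26.4 and 21.7 in T-ETV1, again without overlap. The bright Txn1 probe set was between 8941 and 9357 on all arrays, with a 95% interval of the difference from -0.21 to 0.20.

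Thioredoxin itself, Txn1, the electron donor of the peroxiredoxins, and the superoxide dismutases were nearly level on the probe sets that stand for them. Sod1, the cytosolic copper-zinc form, was at 9296, 9422 and 9316 in WT, and between 9086 and 9827 in T-ETV1. Its 95% interval ran from -0.20 to 0.21. Sod2, the mitochondrial manganese form, ran from 4044 to 4307 in WT and from 3929 to 4628 in T-ETV1 (0.03 ± 0.10). The probe sets next in brightness ran from 7525 to 8074 (Sod1) and from 2502 to 2781 (Sod2) over all arrays. A dimmer Sod1 probe set ranged from 290 to 519 and a dim Sod2 one from 27.4 to 104, with overlapping groups. Txnrd1, which recharges thioredoxin, ran from 3584 to 4062 and from 3635 to 3891 (-0.02 ± 0.09), while 2 dimmer Txnrd1 probe sets were lowest in T-ETV1 D (150 and 136, with 270 or more and 226 or more on the other arrays).

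Cat, the peroxisomal catalase, had 1783, 1301 and 1744 in WT and 1710, 1918, 2233 and 1957 in T-ETV1. T-ETV1 C was highest and WT B lowest, with T-ETV1 A inside the WT range (0.29 ± 0.16, adjusted p = 0.859, and 0.14 without WT B). A second probe set of Cat had 0.05 ± 0.30. Nqo1, a quinone reductase and a commonly used NRF2 target, was at 54.4, 224 and 321 in WT and 98.5, 87.7, 481 and 340 in T-ETV1. The values varied 8.85 times over the arrays, with T-ETV1 C, T-ETV1 D and WT C high and WT A lowest. Its difference of 0.26 ± 0.77 turned to -0.41 without WT A and -0.14 without T-ETV1 C. Txnrd1 and Gclm, also NRF2 targets, had highest arrays less than 1.2 times their lowest on the probe sets that stand for them. Dimmer probe sets ran from 150 to 348 (Txnrd1) and from 805 to 1168 (Gclm). The ratio was 1.88 for Gclc. For the other genes with the searched promoter core it was 1.08 (Sod1), 1.48 (Gstm7), 2.07 (Gstm5), 3.46 (Mgst1) and 4.11 (Gsta3). What lies behind these ranges was not tested.

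Further genes of the pathway were read from lists beside the enzymes, 82 genes in all, and none passed the limma test. At an unadjusted p under 0.05 there were 8 (9.76%), beside 6.12% of all genes. The groups did not overlap for 5 of the 82 (6.1%), close to the 6.32% of all genes. Of 29 measured NRF2 regulators and further targets, 18 had a positive and 11 a negative difference, with a median of 0.05. Akr1b8, an aldo-keto reductase, was at 345, 437 and 593 in WT and 773, 846, 1022 and 1034 in T-ETV1. All T-ETV1 arrays were higher, with a difference of 1.001 ± 0.21 (adjusted p = 0.581). Pgd, an NADPH-forming enzyme of the pentose phosphate pathway, also did not overlap, with 2205 to 2454 in WT and 2766 to 3119 in T-ETV1 (0.29 ± 0.10, adjusted p = 0.768). This is 1 of 4 Pgd probe sets, and by the suffix x of its name it can bind related transcripts. Only the probe set that stands for each gene of these lists is given, also for Hagh (of 3), Sesn2 (of 2) and Nox4 (of 2). Me1, the malic enzyme, which also forms NADPH, overlapped (551 to 1052 and 947 to 1417). Aox1, an aldehyde oxidase that forms peroxide, had 196, 146 and 286 in WT and 112, 76.6, 57.4 and 121 in T-ETV1 (-1.06 ± 0.30, adjusted p = 0.716).

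Of 16 glutathione turnover genes 6 were positive and 10 negative, with a median of -0.11. Hagh, the glyoxalase that hydrolyses lactoylglutathione, was at 2215, 2563 and 1461 in WT and 1111, 868, 1790 and 1211 in T-ETV1 (-0.74 ± 0.29, adjusted p = 0.804). Only T-ETV1 C lay inside the WT range. Chac1, which breaks down glutathione, ranged from 2361 to 3157 in WT and from 1866 to 2705 in T-ETV1 (-0.33 ± 0.17). Ggt6, of the gamma-glutamyl transferase family, had -0.46 ± 0.18, and Oplah, which recycles oxoproline, -0.26 ± 0.14, both with overlapping groups. Of 17 thioredoxin, glutaredoxin and sulfoxide repair genes 8 were positive and 9 negative, with a median of -0.01. Sesn2, a stress-response gene, did not overlap (443 to 530 in WT, 210 to 307 in T-ETV1). Msrb2, a mitochondrial methionine sulfoxide reductase, had -0.47 ± 0.24 and Msrb1, a selenoprotein of the same kind, 0.16 ± 0.10. Sod3, the extracellular dismutase, ranged from 52.9 to 245 in WT and from 8 to 93.9 in T-ETV1, highest in both C arrays. Of 8 selenoprotein synthesis genes 4 were positive and 4 negative, with a median of 0.01. Among them were Selenop (-0.29 ± 0.19), Sephs2 (-0.11 ± 0.12), Sepsecs (0.09 ± 0.13) and Secisbp2 (0.08 ± 0.14), all with overlapping groups. Of 13 peroxide source genes 5 were positive and 8 negative, with a median of -0.15. Cyba, a subunit of the phagocyte oxidase, was at 227, 298 and 1452 in WT and 150, 112, 443 and 102 in T-ETV1, with both C arrays highest, as in the macrophage sum. The part of macrophages in it was not tested. Nox4, an oxidase that forms peroxide, was at 2.11, 20.7 and 37.4 in WT and did not exceed 1.91 in T-ETV1. All its values were under the lowest median intensity of an array (48.5), and WT A was close to the T-ETV1 arrays. Hao2, a peroxisomal oxidase, did not exceed 10.6 on any array.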

How the data were processed

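The deposited table holds intensities on a linear scale for 45037 probe sets on 7 arrays, and how the authors summarised probes and scaled arrays is not given in the sources used here. RNA was extracted with Trizol and amplified with a NuGEN kit, per the labels' protocols. Of the probe sets, 34945 had 1 gene symbol in the platform annotation, 932 had several and 9160 were not listed. Those with several or none were left out. Symbols were updated by Entrez ID for 34741 probe sets. The probe set with the highest mean stood for a gene.

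Values were taken as log2(intensity + 16) at the deposited scaling, so differences of dim genes are understated. All 18194 genes were fitted with limma 3.58.1 in R 4.3.3 (lmFit, eBayes, two-sided) with Benjamini-Hochberg adjustment, and errors of differences are its SE. The test was tried on simulated data. Both groups use the letters A to C. Deviations from the group means correlated at 0.281 (A), 0.217 (B) and 0.356 (C), so the letters were taken as pairs in an alternative with the letter as a block. Other combinations ran from -0.320 (WT A with T-ETV1 C) to 0.187 (WT A with T-ETV1 D). Taking deviations from group means itself lowers the mismatched values, so these correlations do not establish a pairing.

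Alternatives were quantile normalization, equal array medians, pseudocounts of 1 and 64, filters on dim genes, probe sets averaged per gene or taken singly, eBayes with trend or robust, array weights, the block, and leaving out arrays. Enzyme genes picked for closer description were the 12 with the smallest p, the 12 with the highest mean, the 5 with the widest range in each group and 9 enzymes named by symbol. Most are given with every array and some, such as Gstm2, Gstt3, Sod2 and Txnrd1, by range. Further enzyme genes are given by range, and up to 4 of each other list were picked by smallest p. Members and lists were chosen with earlier results of these data known. The number of arrays limits the precision.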

Additional observations from a re-analysis of the deposited data

How the results depend on the processing

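No enzyme gene and no gene of the other pathway lists passed under any alternative run. Over all genes 0 passed, except 27 without T-ETV1 C, 7 without WT C (the range when each array was left out was 0 to 27) and 68 without both C arrays. The count of enzyme genes at an unadjusted limma p under 0.05 was 1. It was 4 with array weights, 3 with an eBayes trend, 5 with every probe set on its own (of 73), 3 with the mean of the probe sets, 2 with the replicate letter as a block, 0 without both C arrays, 0 without the lowest 50% of genes (34 enzyme genes kept), and 1 to 4 when each array was left out. The count without overlap was 4. It was 8 with every probe set, 2 with quantile normalization, 8 without both C arrays and 4 to 7 when each array was left out. For neither count was the share of all genes counted in these alternatives, and groups of fewer arrays overlap less readily. The median difference over the enzymes, -0.02, was 0.14 with equal array medians. That setting shifts all genes of an array alike, so every difference moved by the same amount. The median was 0.0228 with quantile normalization and -0.029 to 0.0136 when each array was left out, and the cause of these changes was not tested. Of the 30 enzyme genes picked for closer description by p, mean, range or symbol, 17 changed sign in some alternative and 13 in none. With equal array medians the values were 0.12 (Gpx1), 0.0665 (Gpx4), 0.10 (Gstm2), 0.0173 (Gstp1), 0.13 (Prdx2), 0.16 (Txn1) and 0.15 (Txnrd1). With the mean of the probe sets they were -0.0244 (Gclm), -0.42 (Gsr), 1.40 (Prdx2), -0.0039 (Sod1) and 0.26 (Txn1). With array weights they were -0.0459 (Gsr), -0.0703 (Gsta4), -0.047 (Nqo1) and 0.0191 (Txnrd1). With quantile normalization they were -0.0040 (Sod1) and 0.0009 (Txn1). With the block they were -0.20 (Gsta4) and 0.0023 (Txn1), and the block changed no call. Without both C arrays they were -0.31 (Gsta4), 0.0037 (Txn1) and 0.0365 (Txnrd1). When each array was left out, sign changes came with ranges of -1.13 to 0.10 (Gpx2), -0.0829 to 0.10 (Gsr), -0.82 to 0.0492 (Gsta3), -0.20 to 0.38 (Gsta4), -0.077 to 0.62 (Gstp3), -0.39 to 0.78 (Gstt1), -0.41 to 0.72 (Nqo1), -0.0185 to 0.0191 (Sod1), -0.0051 to 0.0734 (Sod2), -0.0138 to 0.008 (Txn1) and -0.0535 to 0.0365 (Txnrd1). Probe sets near the floor of the arrays, such as those of Gstm6, Gstm3, Gpx5 and Gpx6, limit what their values can show.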
